A study of Saccharomyces cerevisiae with 15 samples.

Results

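Cells that overexpressed the Mge1 presequence without PDR3 were compared with wild-type cells that overexpressed the Mss116 presequence, across all genes of the count table. The comparison took 6 of the 15 libraries of the series, 3 replicates from each of 2 groups, and 6170 genes had enough counts to be tested out of 7127 in the table. MGE1, MSS116, PDR3 and HIS3 were left out of every count because the constructs or the deletion cassette set their levels. The first group (MTSMGE1_OE_pdr3_KO in the labels) was a W303 strain of mating type a in which PDR3 was replaced by HIS3 (pdr3::HIS3), and it expressed residues 1 to 44 of Mge1 fused to mCherry. The second (MSS116_1-53_OE) was a W303 strain of mating type a with PDR3 intact, and it expressed residues 1 to 53 of Mss116 fused to mCherry. Both fusions sat on 2-micron plasmids with a URA3 marker behind a galactose-inducible promoter, and both were induced with 1% galactose for 4 h. The strain list of the study gives both strains the same auxotrophic markers (ade2-1, leu2-3, ura3, trp1-1 and his3-11,15), so only the first is prototrophic for histidine. The labels name YPR medium with 2% raffinose and give an empty 2-micron plasmid as the genotype of every library, whereas the methods describe drop-out medium for such inductions. Each group was 1 listed strain, and nothing in the labels says that its replicates were separate cultures, so p-values measure the spread between these libraries. The other groups of the series were wild-type cells with the Mge1 presequence, and wild-type and pdr3Δ cells that overexpressed Psd1, an inner membrane phosphatidylserine decarboxylase whose overexpression impairs protein import.

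Construct and PDR3 genotype differed together here, and their parts cannot be told apart in this comparison. The labels of the Mss116 libraries alone mention an additional set of samples, so preparation or sequencing that differed between the groups cannot be told apart from them either.

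Pdr3 and its paralogue Pdr1 are zinc cluster transcription factors that bind drug response elements in front of genes for efflux pumps such as Pdr5. When protein import into mitochondria fails, Pdr3 drives the mitochondrial compromised protein import response (mitoCPR), whose target Cis1 recruits the ATPase Msp1 to clogged translocases. Apart from this branch, respiration and carbon use have their own regulators in yeast. The Hap complex binds CCAAT boxes of genes for the respiratory chain, and the zinc cluster activators Cat8 and Sip4 bind carbon source responsive elements (CSREs) of genes for gluconeogenesis and the glyoxylate cycle. The question was which differences from the Mss116 control could be seen across the genome when Pdr3 was absent.

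The coding bases of the 2 presequences show what the cells were given. They are read from the RefSeq R64 genome and not from the plasmids, and capitals mark the start codon. MGE1 (YOR232W) lies on the plus strand and its first 132 coding bases span chrXV:774573-774704. MSS116 (YDR194C) lies on the minus strand and its first 159 coding bases span chrIV:847788-847946. The stretches hold 42.4% and 36.5% G or C.
MGE1 presequence: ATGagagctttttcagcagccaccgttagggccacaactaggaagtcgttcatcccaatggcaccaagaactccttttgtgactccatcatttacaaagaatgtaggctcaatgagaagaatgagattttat
MSS116 presequence: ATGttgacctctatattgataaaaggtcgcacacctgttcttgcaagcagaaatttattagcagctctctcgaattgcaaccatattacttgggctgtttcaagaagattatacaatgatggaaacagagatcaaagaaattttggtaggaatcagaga

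The 6 libraries held 9593080 to 14503782 gene counts each. PDR3 had 0, 1 and 1 counts in the deletion libraries and 941, 941 and 921 in the controls. MGE1 had between 82209 and 96296 counts in the first group and between 3151 and 4164 in the second, and MSS116 had between 5035 and 7722 in the first and between 79958 and 106967 in the second. HIS3 had 1128 to 1516 counts in the deletion libraries and 579 to 748 in the controls. The targeted genes thus followed the labels in all 6 libraries. Of the markers of mating type a, STE2 had 4477 to 7173 counts and MFA1 934 to 2008, whereas the alpha factor gene MF(ALPHA)1 had 32 to 239. SAG1, an agglutinin gene of alpha cells, was the exception with 740 to 1118 counts. Each of 6 genes of the mitochondrial genome had 0 to 15 counts in these mRNA libraries, so the presence of mitochondrial DNA could not be checked. The galactose genes GAL1, GAL7 and GAL10 were high throughout, with 34355 to 112233 counts.

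No gene differed at an adjusted p-value of 0.05 or less when the groups were compared without regard to the replicate number (edgeR, 0% of 6170 genes at any fold), and the smallest adjusted p was 0.11, for ARO10. At an unadjusted p under 0.05, 191 genes were lower in the deletion libraries (3.10%) and 143 were higher (2.32%). DESeq2, the tool of the study, called 76 genes lower (1.14% of 6683 genes) and 13 higher (0.195%) in the same libraries without the block. In 369 genes (5.98%) the 3 deletion libraries all lay below the 3 controls, and in 348 genes (5.64%) they all lay above. The median log2 fold change over all genes was 0.01.

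With the replicate number as a block, edgeR called 147 genes lower (2.38%) and 41 higher (0.665%). Only 6 of these reached 2-fold, all of them lower (0.0972%), and no gene was called higher at 2-fold. The 6 were SFC1, MLS1, PCK1, YGR067C, AGX1 and ACH1. The median log2 fold change was -0.48 among the genes called lower and 0.48 among those called higher. All 147 genes called lower were lower in 3 of 3 same-numbered pairs. That fit favours genes whose same-numbered differences agree, so this adds no separate support. Of the 89 genes that DESeq2 called without the block, 81 were among the 188 that edgeR called with it.

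The use of the block rests on the replicate numbers of the labels. Libraries with the same number deviated together from their group means in number 2 (r = 0.714 across genes) and number 3 (r = 0.712), but hardly in number 1 (r = 0.0638). The numbers were thus not established as pairs. In what follows, the log2 fold change and adjusted p of a gene in this comparison are from edgeR with the block unless another fit is named. The median, range and number above 0 of a gene list are from edgeR without the block unless the block is named. Without the block edgeR called no gene, so each of these edgeR calls rests on the replicate numbers. Lists of growth and stress genes were among those that varied with the number. The summed level of 60 ribosome biogenesis genes was 18030, 15020 and 23970 CPM (counts scaled to the size of the library) in replicates 1, 2 and 3 of the deletion group. In the controls it was 19660, 11600 and 21950 CPM. Number 2 was lowest and number 3 highest in both groups. The 44 genes of the general stress list summed to 5884, 7528 and 3354 CPM in the deletion libraries and to 5186, 9501 and 3463 CPM in the controls, with number 2 highest and number 3 lowest in both.

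**Figure D1:**
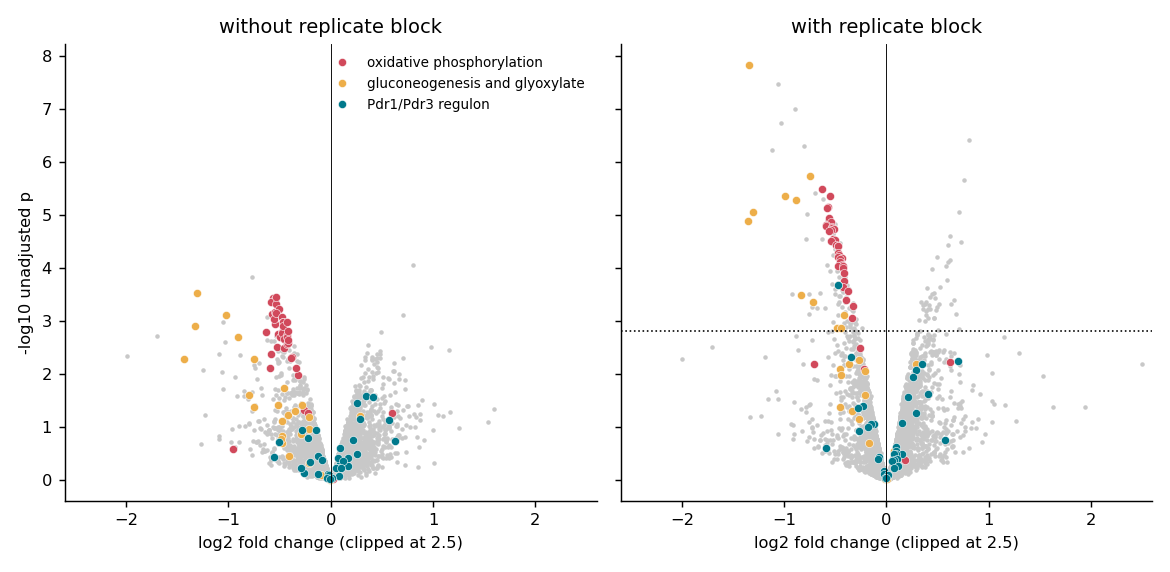
Each point is 1 of 6170 genes, with its log2 fold change on the horizontal axis and -log10 of its unadjusted p on the vertical axis, in the fit without the replicate block (left) and with it (right). Coloured points are members of 3 gene lists, and the dotted line on the right is the largest unadjusted p called at an adjusted p of 0.05 (0.00155). Of the 41 genes of oxidative phosphorylation 39 sit left of 0 in the left panel, and 36 are above the line on the right, and the 35 genes of the Pdr1/Pdr3 regulon sit around 0.

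Genes that let cells build sugar from acetate, lactate and ethanol were among those furthest below the control. Of 27 tested genes of gluconeogenesis, the glyoxylate cycle, carnitine transport and acetate use, 12 were lower with the block, against 2.38% of all genes, and 0 were higher, and the median log2 fold change was -0.45 against 0.01 over all genes. In 12 of the 27 the deletion libraries lay wholly below the controls, against 5.98% of all genes.

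PCK1, which encodes phosphoenolpyruvate carboxykinase, the first step of gluconeogenesis, stood at 25.8, 27.4 and 38.9 CPM in replicates 1, 2 and 3 of the deletion group and at 89.9, 70.4 and 67.3 CPM in the controls. The groups did not overlap, and the log2 fold change with the block was -1.31 ± 0.16 (SE, adjusted p = 0.0024). Without the block it was -1.30 ± 0.19, with an adjusted p of 0.23.
MLS1, which encodes malate synthase of the glyoxylate cycle, stood at 40.1, 54.3 and 37.6 CPM in the deletion libraries and at 142, 153 and 60.4 CPM in the controls. Control replicate 3 was close to the deletion libraries and the other controls were far above them. The log2 fold change with the block was -1.35 ± 0.17 (adjusted p = 0.0029). Without the block it was -1.43 ± 0.35, with an adjusted p of 0.35 by edgeR.
SFC1, which encodes the succinate-fumarate carrier that links the glyoxylate cycle to mitochondria, stood at 91.7, 51.1 and 62.8 CPM against 216, 149 and 151 CPM. In each group replicate 1 was the highest. Its log2 fold change with the block was -1.34 ± 0.08 (adjusted p = 1.8e-05), the smallest adjusted p of that edgeR fit among the counted genes. Without the block it was -1.33 ± 0.25, with an adjusted p of 0.24 by edgeR.
ICL1, isocitrate lyase, stood at 238, 223 and 225 CPM against 556, 492 and 345 CPM, just short of 2-fold with the block (log2 fold change of -0.996 ± 0.110, adjusted p = 0.0016) and just past it without (-1.02). The deletion libraries were close together and the controls were spread.

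JEN1, the lactate and pyruvate permease of the plasma membrane, ran from 163 to 211 CPM in the deletion libraries and from 282 to 443 CPM in the controls (log2 fold change of -0.89 ± 0.10, adjusted p = 0.0017). The transcripts of the activators Sip4 and Cat8 were also lower with the block, and a link to the genes above was not tested. SIP4 stood at 16.9, 13.7 and 8.03 CPM against 24.2, 24.8 and 18.3 CPM (-0.84 ± 0.16, adjusted p = 0.016), and CAT8 at 41.8, 50.2 and 36.4 CPM against 48.02, 80.3 and 49.7 CPM (-0.45 ± 0.10, adjusted p = 0.045), with an overlap between groups in CAT8 only. YAT1, a carnitine acetyltransferase, was lower by a log2 fold of -0.72 ± 0.14 (adjusted p = 0.020), and ALD6, the cytosolic acetaldehyde dehydrogenase, by -0.74 ± 0.07 (adjusted p = 0.00096) although its groups overlapped. FBP1, the fructose bisphosphatase of gluconeogenesis, did not pass the test with the block (log2 fold change of -0.45 ± 0.14, adjusted p = 0.13).

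AGX1, ACH1 and YGR067C lie outside the gene lists and came forward by the size of their change with the block. AGX1, which makes glycine from glyoxylate, stood at 103, 122 and 78.4 CPM against 219, 236 and 171 CPM (-1.06 ± 0.07, adjusted p = 3.5e-05). ACH1, a mitochondrial enzyme that moves CoA between acetate and succinate, stood at 261, 326 and 202 CPM against 476, 671 and 464 CPM (-1.04 ± 0.08, adjusted p = 0.00014). YGR067C, which RefSeq lists as an uncharacterized protein, stood at 54.7, 32.3 and 30.6 CPM against 101, 83.0 and 67.2 CPM (-1.12 ± 0.10, adjusted p = 0.00033). In all of them the groups did not overlap. AIM33, a cytochrome b5 reductase by its RefSeq product name, had the smallest adjusted p among the lower genes without the block (0.15), with 46.4, 48.4 and 39.7 CPM against 73.2, 75.9 and 80.2 CPM. Its log2 fold change was -0.77 in both fits.

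**Figure D2:**
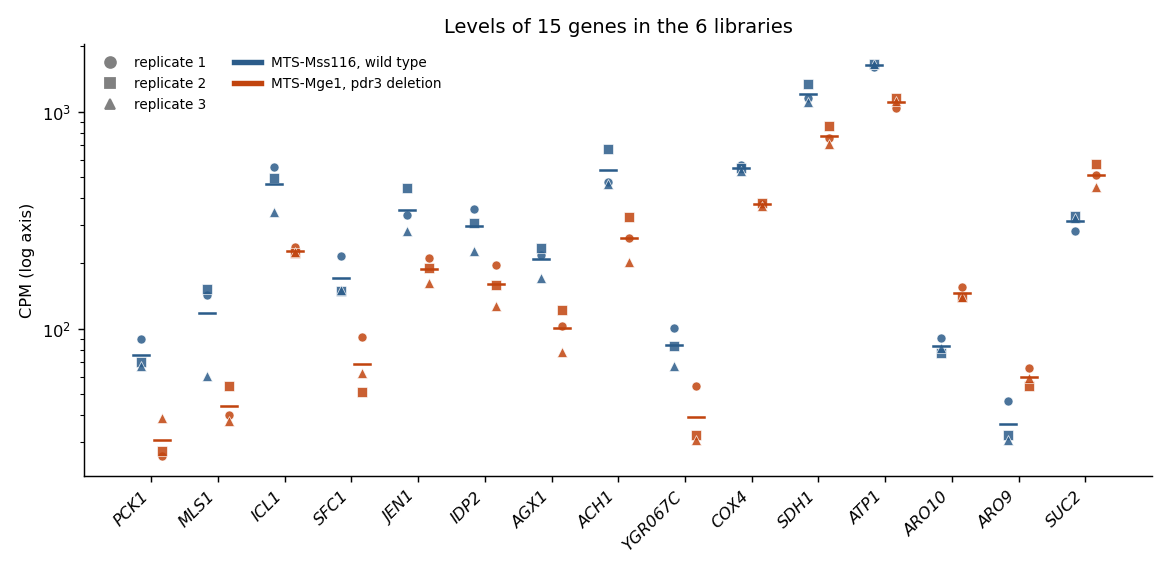
The CPM of 15 genes (log axis) in the 3 control libraries (blue) and the 3 deletion libraries (red), with a symbol for each replicate number and a bar at each group mean. PCK1 lies between 25.8 and 38.9 CPM in the deletion libraries and between 67.3 and 89.9 in the controls, and ARO10, ARO9 and SUC2 lie the other way round.

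These calls depended on the libraries to different degrees. With the block, leaving out 1 library leaves its same-numbered partner without a match, so the 6 such fits amount to leaving out each of the 3 pairs. In all 6 fits 8 genes stayed lower (PCK1, MLS1, SFC1, ICL1, AGX1, ACH1, YGR067C and IDP2) and 1 stayed higher (ARO10). Without replicate 3 of the deletion group only 8 genes were lower and 1 higher, and without replicate 3 of the control 10 were lower and 3 higher. Leaving out a library of number 1 gave 245 to 259 lower and 228 to 258 higher genes. Every other gene called with the block was lost in at least 1 of these fits. Of the 27 genes of gluconeogenesis and acetate use, 4 to 5 were called without a library of number 3 and 10 to 15 without any other library.

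The promoters of these genes were searched for CSRE matches in the 600 bases before the start codon, a search chosen after their values were seen. Matches were found in 5 of the 27 windows of the list (18.5%) and in 3 of the 6 genes that were lower by 2-fold, against 33 of 6005 windows of all protein-coding genes (0.5%). In the 300-base window from 250 bases before to 50 after the start codon, the share was 3.7% in the list and 0.2% in all genes. MDH2, whose transcript was not called (-0.10, adjusted p = 0.59), had 3 matches, so a match did not go with a lower level in every gene. The stretches of 4 genes are shown because their transcripts were among the furthest below the control. Capitals mark the match, on either strand, and each stretch reads along the strand of its gene. The PCK1 stretch is chrXI:630658-630693 and its match ends 471 bases before the start codon, and the ICL1 stretch is chrV:287290-287325 with a match ending 388 bases before it. MLS1 has a match at chrXIV:405815-405850 and one at chrXIV:405845-405880, and the YGR067C stretch is chrVII:625221-625256.
PCK1: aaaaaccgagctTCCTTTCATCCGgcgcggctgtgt
ICL1: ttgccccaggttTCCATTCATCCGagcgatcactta
MLS1 (first match): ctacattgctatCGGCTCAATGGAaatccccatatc
MLS1 (second match): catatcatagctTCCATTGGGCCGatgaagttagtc
YGR067C: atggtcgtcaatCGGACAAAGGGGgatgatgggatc
SFC1, AGX1 and ACH1 had no match in this window. The stress element AGGGG, counted on both strands as AGGGG or CCCCT, was in 4 of the 6 windows of 300 bases (66.7%) against 21.6% of all genes. A drug response element (TCCGCGGA, TCCGTGGA or TCCACGGA on either strand) was in 0 of the 6, against 0.6% of all genes. A match describes these letters only.

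Nuclear genes of oxidative phosphorylation made up the largest number of calls of any list. Of 41 tested genes 36 were lower with the block and 0 were higher, against 2.38% and 0.665% of all genes. The deletion libraries lay wholly below the controls in 38 of the 41, against 5.98% of all genes. DESeq2 without the block called 35 of the 41 lower, against 1.14% of all genes it tested. The median log2 fold change of the 41 was -0.47, and all 36 genes called with the block were under 2-fold. The summed level of the 41 was 19390, 20350 and 19320 CPM in the deletion libraries and 26650, 27890 and 27310 CPM in the controls. Its mean dropped by 27.8% from the control. The libraries of a group stood close together, and no deletion library came near a control.

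The called genes came from succinate dehydrogenase, the cytochrome bc1 complex, cytochrome c oxidase and the ATP synthase. SDH1, the flavoprotein subunit of succinate dehydrogenase, stood at 759, 854 and 711 CPM against 1160, 1337 and 1102 CPM (-0.63 ± 0.07, adjusted p = 0.0014). QCR8 of the cytochrome bc1 complex stood at 249, 250 and 232 CPM against 347, 350 and 357 CPM (-0.53 ± 0.07, adjusted p = 0.0030). COX4 of cytochrome c oxidase stood at 375, 381 and 366 CPM against 569, 551 and 532 CPM (-0.56 ± 0.07, adjusted p = 0.0028). The replicates of QCR8 and COX4 stood close together, and the difference between groups was far larger than their spread. ATP1, the alpha subunit of the ATP synthase, stood at 1044, 1159 and 1116 CPM against 1607, 1664 and 1660 CPM (-0.57 ± 0.07, adjusted p = 0.0021), and DESeq2 without the block gave it an adjusted p of 4.4e-09.

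Not every gene of respiration was called. CYC1, cytochrome c, was wholly below the controls but missed the threshold (log2 fold change of -0.22 ± 0.07, adjusted p = 0.13), as did NDE1, an external NADH dehydrogenase (-0.26 ± 0.07, adjusted p = 0.080). COX5B, the isoform of subunit 5 that is used when oxygen is low, pointed up with 23.6, 22.97 and 16.3 CPM against 10.5, 18.8 and 12.1 CPM, and its groups overlapped (0.62 ± 0.18, adjusted p = 0.11). AAC3, the ADP/ATP carrier isoform of anaerobic cells, was called higher by DESeq2 without the block (log2 fold change of 1.16, adjusted p = 0.033) at only 3.74 to 5.85 CPM against 2.02 to 2.73 CPM, and not by edgeR with the block (adjusted p = 0.058).

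The calls of this list, but hardly its median, varied with the libraries in the fit with the block. Without replicate 3 of either group 0 of the 41 genes was called while the median log2 fold change was -0.48 and -0.47, against -0.47 with all 6 libraries, whereas without a library of number 1 or 2 between 37 and 38 were called lower. Without a library of number 2, 1 gene of the list, COX5B, was called higher (log2 fold change of 0.80). In a fit of all 5 groups without the block, 32 of the 41 were called lower.

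A CCAAT box, counted on both strands as CCAAT or ATTGG, was in 35 of the 41 windows of 300 bases (85.4%) against 43.2% of all protein-coding genes, again by a search chosen after seeing the values. The share was 48.1% in the gluconeogenesis list and 42.5% among the genes called higher. The boxes of QCR8 (chrX:106211-106239, plus strand) and ATP2 (chrX:647410-647438, plus strand) show how one sits in its surroundings, with the match in capitals. That of QCR8 begins 211 bases before the start codon and that of ATP2, 1 of 3 in its window, 185 bases before it. The marked match of ATP2 overlaps an ATTGG counted as another of the 3, and it lies within the gene DMO1 (chrX:647126-647476). COX4 and ATP1, described above, had 0 matches in their windows of 300 bases.
QCR8: attttttttaagCCAATgaaaatgaagaa
ATP2: ctccaggacaggCCAATtggataaatttt

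The tricarboxylic acid cycle followed the same direction. Of 26 tested genes of the cycle and of the retrograde pathway, 14 were lower with the block and 0 higher, against 2.38% and 0.665% of all genes. The median log2 fold change without the block was -0.40. IDP2, the cytosolic isocitrate dehydrogenase, changed most with 196, 159 and 127 CPM against 356, 307 and 229 CPM (-0.89 ± 0.07, adjusted p = 8.8e-05). FUM1, fumarase, stood at 513, 537 and 476 CPM against 800, 839 and 707 CPM (-0.62 ± 0.07, adjusted p = 0.0017). ACO1, aconitase, stood at 1392, 1563 and 1184 CPM against 1893, 2314 and 1794 CPM (-0.54 ± 0.07, adjusted p = 0.0029). The groups of these 3 genes did not overlap. CIT1, the mitochondrial citrate synthase, was lower with the block (-0.55 ± 0.09, adjusted p = 0.0077) and overlapped between groups. CIT2, the peroxisomal citrate synthase that reports the retrograde pathway, was not called (-0.35 ± 0.13, adjusted p = 0.20) with 371, 516 and 202 CPM against 343, 797 and 293 CPM, although it was called lower at -0.59 in the fits with the block that left out a library of number 1. MDH2, the cytosolic malate dehydrogenase, was not called either (-0.10 ± 0.07, adjusted p = 0.59). Without replicate 3 of either group 1 gene of this list was called, IDP2, while the median with the block was -0.38 and -0.37, against -0.38 with all 6 libraries.

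The 3 lists held 62 of the 147 lower genes, from 94 of the 6170 genes tested. The other lower genes include 66 in no list, of which the 7 described next were picked after their values were seen and stand for no group. PET9, the major ADP/ATP carrier, stood at 1666, 1689 and 1899 CPM against 2442, 2341 and 2643 CPM (-0.50 ± 0.06, adjusted p = 0.0030). MIR1, the phosphate carrier, stood at 921, 927 and 1040 CPM against 1359, 1216 and 1451 CPM (-0.48 ± 0.07, adjusted p = 0.0046). POR1, the outer membrane porin, was lower by a log2 fold of -0.38 ± 0.07 (adjusted p = 0.013), and MIC60, which shapes cristae, by -0.44 ± 0.07 (adjusted p = 0.0067). MIC10 and MIC19 of the same cristae complex were called as well, with log2 fold changes of -0.36 and -0.40. CYB2, the lactate dehydrogenase of the intermembrane space, was lower with the block (-0.58 ± 0.09, adjusted p = 0.0067) with overlapping groups.

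Other mitochondrial functions did not share this direction. Of 68 mitochondrial ribosomal protein genes none was called in either direction (edgeR with and without the block, DESeq2 without it), 61 had a log2 fold change above 0, and the median was 0.08. None of 39 genes of mitochondrial protein import (median 0.07, range -0.23 to 0.27) and none of 19 mitochondrial chaperones and proteases (median 0.07, range -0.14 to 0.28) was called by edgeR in either fit or by DESeq2 without the block. At an unadjusted p under 0.05 without the block, 2 of the 68, 1 of the 39 and 3 of the 19 were higher, against 2.32% of all genes. In these lists 0 were lower, against 3.10% of all genes. The deletion libraries lay wholly above the controls in 10 of the 68, 3 of the 39 and 6 of the 19, against 5.64% of all genes. They lay wholly below in 0. DESeq2 with the block called 1 import gene higher, MIA40 (adjusted p = 0.044). The cytosolic heat shock genes (30 tested, median 0.02) and the proteasome genes with RPN4 (33 tested, median 0.12, 32 above 0) had no call in the same fits either, nor had the 138 cytosolic ribosomal protein genes (median -0.03), of which DESeq2 with the block called RPL22B higher (adjusted p = 0.023).

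**Figure D3:**
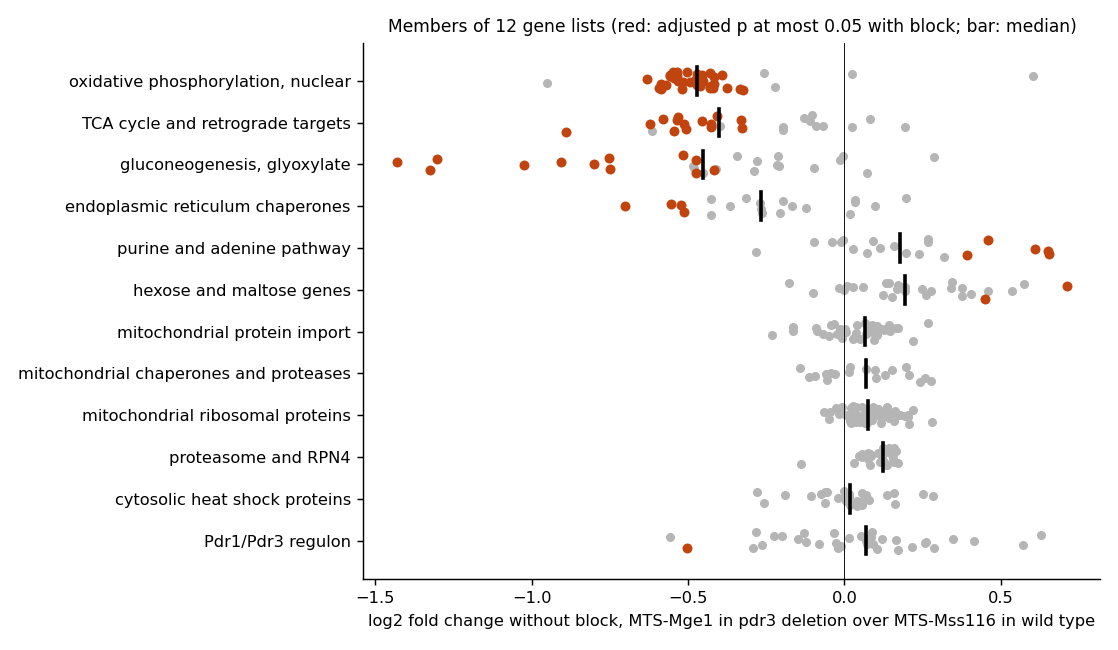
The log2 fold change without the block of each tested member of 12 gene lists (horizontal axis), with red points for genes called with the block and a bar at each list's median. The medians of oxidative phosphorylation, the tricarboxylic acid cycle and gluconeogenesis lie between -0.47 and -0.40, and those of the other mitochondrial lists lie between 0.07 and 0.08.

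The Pdr1/Pdr3 regulon stood at the level of the control. Of 35 tested genes 0 were called higher and 1 lower with the block, against 0.665% and 2.38% of all genes. The median log2 fold change was 0.07. PDR5, the main drug efflux pump, stood at 170, 190 and 172 CPM in the deletion libraries and at 180, 193 and 169 CPM in the controls. Its log2 fold change with the block was -0.03 with a 95% interval of -0.17 to 0.12, an interval that leaves room for a small difference in either direction. CIS1 had no more than 1.11 CPM in any deletion library and 0.717 to 1.56 CPM in the controls, too few reads to tell a small difference. The called gene was TPO4, a polyamine exporter, with 48.6, 69.5 and 36.4 CPM against 63.7, 107 and 47.9 CPM (-0.48 ± 0.08, adjusted p = 0.013). The calls of this list varied with the fit. With the block, all 5 groups in one fit gave 1 higher and 0 lower. Leaving out a library of number 1 gave 2 higher and 2 lower, and of number 2 gave 1 higher and 2 lower. Without a library of number 3 there were 0 in either direction. The deletion libraries lay wholly above the controls in 6 of the 35 genes, RSB1 and FLR1 among them, against 5.64% of all genes. RSB1, a membrane protein of sphingoid base resistance, stood at 33.9, 38.6 and 35.01 CPM against 27.5, 31.8 and 25.1 CPM (0.35 ± 0.10, adjusted p = 0.11). FLR1, a multidrug transporter, stood at 64.4, 67.8 and 78.2 CPM against 56.6, 60.5 and 58.7 CPM (0.26 ± 0.08, adjusted p = 0.16). These differences were small and did not pass the test. PDR1 itself stood at 95.1, 106 and 99.7 CPM against 89.5, 82.6 and 85.3 CPM, which did not pass it either (adjusted p = 0.19).

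Of 20 genes of the endoplasmic reticulum chaperone list 4 were called lower with the block, against 2.38% of all genes, and 0 higher. Without the block, 5 of the 20 had a log2 fold change above 0 and the median log2 fold change was -0.27. DESeq2 without the block called none of them. KAR2, the Hsp70 of this compartment, stood at 686, 944 and 469 CPM against 1232, 1460 and 716 CPM (-0.70 ± 0.08, adjusted p = 0.0016). HAC1, the transcription factor of the unfolded protein response, stood at 256, 342 and 183 CPM against 360, 485 and 301 CPM (-0.57 ± 0.07, adjusted p = 0.0030). Number 2 was highest and number 3 lowest in both groups for both genes, so the groups overlapped while every same-numbered pair was lower in the deletion. LHS1, a nucleotide exchange factor for Kar2 (-0.53 ± 0.07, adjusted p = 0.0030), and MPD1, a disulfide isomerase (-0.50 ± 0.09, adjusted p = 0.014), behaved in the same way. PDI1, the main disulfide isomerase, was not called (-0.26 ± 0.07, adjusted p = 0.086). Without replicate 3 of either group 0 of the 20 was called, while the median log2 fold change with the block was -0.33 and -0.32, against -0.25 with all 6 libraries.

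Fewer genes were called higher than lower in the deletion libraries, and none of them reached 2-fold. ARO10, the decarboxylase of the route from aromatic amino acids to fusel alcohols, stood at 156, 141 and 140 CPM against 90.7, 77.0 and 81.9 CPM (0.81 ± 0.07, adjusted p = 0.00026), the largest change among the genes called higher. ARO9, the aminotransferase before it, stood at 65.6, 54.6 and 59.2 CPM against 46.6, 32.4 and 30.8 CPM (0.73 ± 0.10, adjusted p = 0.0037). These were the only 2 of 53 genes of amino acid synthesis and GCN4 called with the block, and DESeq2 called both without it. SUC2, invertase, stood at 509, 572 and 452 CPM against 282, 331 and 322 CPM (0.71 ± 0.08, adjusted p = 0.0024). The groups of all 3 genes did not overlap. MAL12, a maltase, was higher by 0.45 ± 0.08 (adjusted p = 0.016), and these 2 were the called members among 29 hexose and maltose genes, whose median was 0.19. Only 19.6% of the 59-base stretches of MAL12 occur once in the genome, so its near copies share its counts. None of 9 genes of histidine synthesis was called (median -0.02), although only the deletion strain carries HIS3.

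Of 20 genes of the purine and one-carbon list 5 were called higher with the block and 0 lower, against 0.665% and 2.38% of all genes. GCV2, of the glycine cleavage system, stood at 111, 192 and 103 CPM against 77.5, 108 and 72.9 CPM (0.62 ± 0.08, adjusted p = 0.0034), and GCV1 at 61.3, 97.6 and 51.8 CPM against 44.5, 56.3 and 37.4 CPM (0.58 ± 0.09, adjusted p = 0.0067). SHM2, the cytosolic serine hydroxymethyltransferase, was higher by 0.45 ± 0.07 (adjusted p = 0.0073) and ADE17 of purine synthesis by 0.66 ± 0.13 (adjusted p = 0.020). Number 2 was highest in both groups of these genes, and the groups overlapped. GCV3 was the other gene called, the median of the list was 0.18, and DESeq2 without the block called 0 of the 20. LPD1, a subunit that the glycine cleavage system shares with other mitochondrial enzymes, was lower by a log2 fold of -0.41 ± 0.07 (adjusted p = 0.0097) and belongs to the tricarboxylic acid cycle list. Without replicate 3 of either group none of them was called with the block, while the median was 0.20 and 0.21, against 0.18 with all 6 libraries. ADE2, which carries the ade2-1 allele in these strains, was higher by 0.46 ± 0.09 (adjusted p = 0.016).

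Vitamin B6 genes split. SNZ1, which makes pyridoxal phosphate in starved cells, stood at 132, 94.0 and 62.1 CPM against 81.6, 57.8 and 33.6 CPM. It was higher with the block (0.76 ± 0.08, adjusted p = 0.0011), but its groups overlapped. Without the block it was not called (0.74 ± 0.38, edgeR unadjusted p = 0.093, DESeq2 adjusted p = 0.85). Its neighbour SNO1 was higher by 0.51 ± 0.12 with the block (adjusted p = 0.047). The near copies of SNZ1 were lower, with SNZ2 at 54.8, 60.6 and 53.95 CPM against 83.0, 86.3 and 75.8 CPM (-0.53 ± 0.07, adjusted p = 0.0037) and SNZ3 lower by -0.48 ± 0.07 (adjusted p = 0.0062). Only 25.3% of the 59-base stretches of SNZ2 and SNZ3 occur once in the genome, so these are not separate measurements. SOR1, a sorbitol dehydrogenase gene, was higher by 0.61 ± 0.09 (adjusted p = 0.0062) and RAD16, a DNA repair gene, by 0.60 ± 0.08 (adjusted p = 0.0037). SOR1 shares nearly all its sequence with SOR2, as 5.8% of its stretches are unique. SAG1 stood at 90.8, 86.2 and 80.4 CPM against 66.8, 57.6 and 58.4 CPM (0.49 ± 0.07, adjusted p = 0.0055). Of the 196 genes checked in this way 17 had under 90 percent unique stretches. They include the 4 identical copies of the asparaginase gene ASP3 (0.0% unique), each called lower by a log2 fold of -0.52, which are 1 measurement and not 4.

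The other groups of the series place these differences. The comparisons with wild-type MTSMge1 libraries share the Mss116 or the deletion libraries with the main one, so their values are set side by side without a test between them. The 41 genes of oxidative phosphorylation summed to 26810, 28080 and 27360 CPM under the Mss116 presequence and to 21720, 21650 and 20390 CPM under the Mge1 presequence in wild-type cells, when all 15 libraries were scaled together. They summed to 19440, 20230 and 19400 CPM in pdr3Δ cells with the Mge1 presequence. They were lower still with Psd1, at 16400 to 18230 CPM in wild-type and 16140 to 16570 CPM in pdr3Δ cells. The Mss116 group was thus the highest of the 5 and stood apart from all others. The median log2 fold change of the list was -0.33 for the Mge1 over the Mss116 presequence in wild-type cells, and -0.13 for pdr3Δ over wild-type cells with the Mge1 presequence. No member of the list named above was called in either of these comparisons without the block. In that fit the main comparison called 0 of the 41 as well, so the lack of calls does not set the comparisons apart.

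The gluconeogenesis genes were arranged otherwise. Their median was -0.11 for the Mge1 over the Mss116 presequence in wild-type cells and -0.41 for pdr3Δ over wild-type cells with the Mge1 presequence. PCK1 stood at 73.3, 69.9 and 58.8 CPM in wild-type cells with the Mge1 presequence, close to the Mss116 group, and its log2 fold change between pdr3Δ and wild-type cells with this presequence was -1.13 (adjusted p = 0.046, edgeR without the block). YAT1 was lower by -1.30 in the same comparison (adjusted p = 0.011), the log2 fold changes of MLS1 and ICL1 were -1.36 and -0.76 (adjusted p = 0.58 and 0.39). ARO10 and ARO9 were higher there, by 0.85 (adjusted p = 0.0028) and 0.92 (adjusted p = 0.011), and stood at -0.04 and -0.21 between the presequences in wild-type cells.

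The Psd1 libraries take no part in the main comparison and give the PDR3 genotype difference once more, under another construct. There the median of the gluconeogenesis list was -0.20 and that of oxidative phosphorylation -0.10. Without the block the log2 fold changes of PCK1 and MLS1 were -0.83 and -0.96 (adjusted p = 0.29 and 0.22), whereas with it both were lower (adjusted p = 0.020 and 0.00015). With the block 296 of 6145 genes were called higher and 305 lower in these libraries. Whether their replicate numbers are pairs was not checked. SFC1 did not differ beyond its spread (0.06, adjusted p = 0.91). SUC2 was higher by 0.84 without the block (adjusted p = 0.023), and ARO10 stood at 0.30 on the log2 scale (adjusted p = 0.51). ADE17 went the other way, lower by -0.88 (adjusted p = 0.0077). A test of the interaction of construct and genotype over the Mge1 and Psd1 groups, by edgeR without the block, called none of 61 named genes (smallest adjusted p = 0.33). With 3 libraries in each group this does not show that the genotype differences were equal. The uncalled interaction estimates of ADE17 and SFC1 were 1.09 and -0.73 on the log2 scale.

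**Figure D4:**
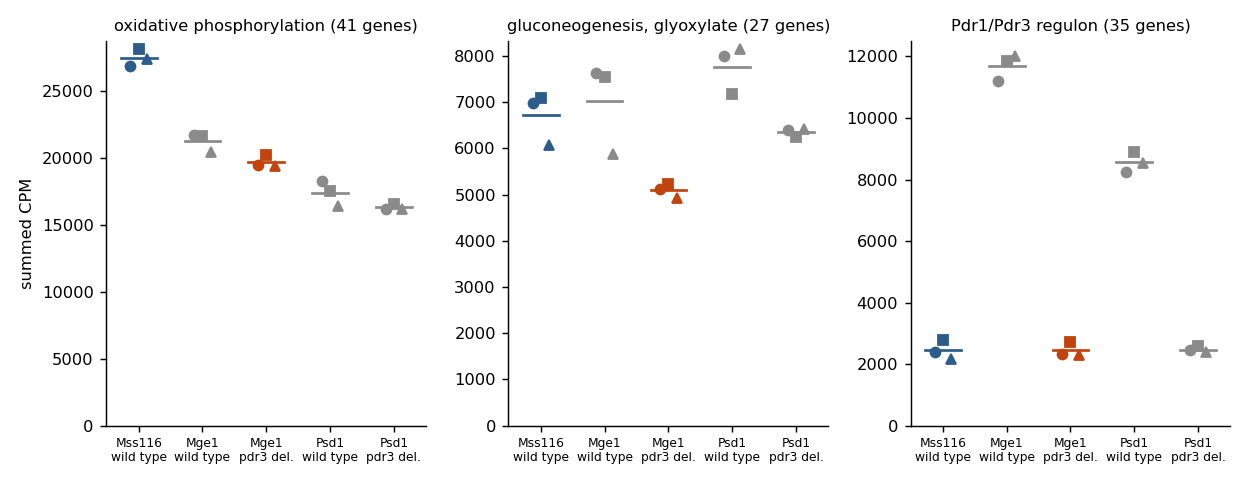
Summed CPM of the genes of 3 lists in each of the 15 libraries, by group, with a symbol for each replicate number and a bar at each group mean, on axes that start at 0. Oxidative phosphorylation is highest in the Mss116 group (26810 to 28080 CPM), gluconeogenesis is lowest in pdr3Δ cells with the Mge1 presequence (4929 to 5228 CPM), and the Pdr1/Pdr3 regulon is high in wild-type cells with the Mge1 presequence or Psd1 (8254 to 12000 CPM) and lies between 2171 and 2769 CPM in the other groups.

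**Figure D5:**
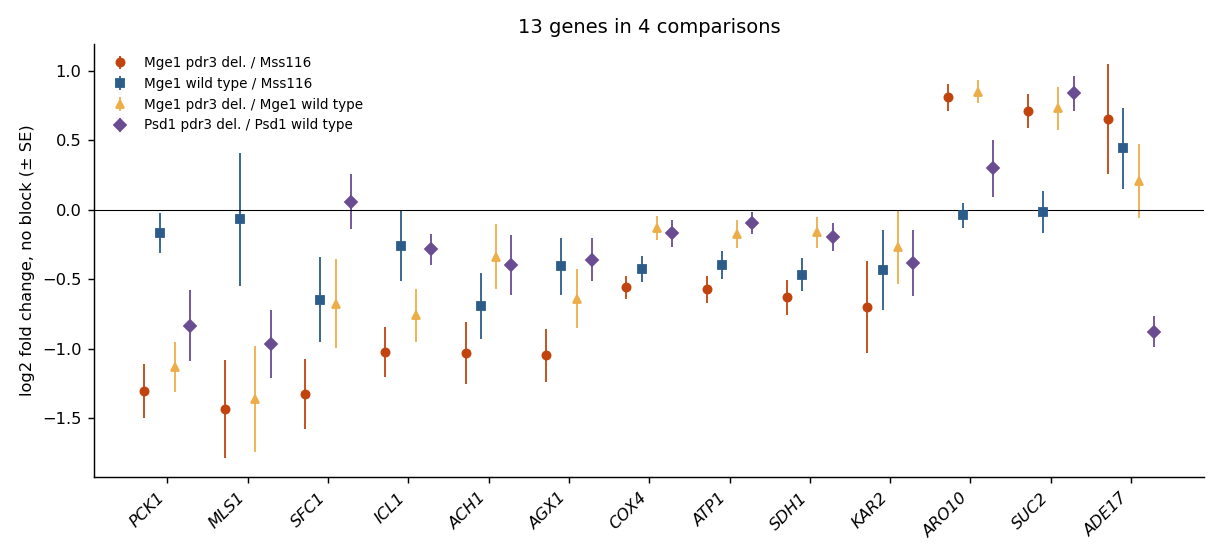
Log2 fold changes without the block (points) and their SE (bars) of 13 genes in 4 comparisons, of which the Psd1 comparison shares no library with the other 3. Between the presequences in wild-type cells PCK1 and MLS1 lie at -0.17 and -0.07 and COX4, ATP1 and SDH1 between -0.47 and -0.40, whereas in the genotype comparisons PCK1 and MLS1 lie between -1.36 and -0.83 and the others between -0.20 and -0.09.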

How the data were processed

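Libraries came from stranded mRNA preparations sequenced as paired reads of 59 bases. The authors aligned them to the yeast genome R64-1-1 with the DRAGEN RNA app (version not given in the sources used here) and counted reads on genes with featureCounts, and they deposited the whole-number counts per gene without normalization. How multi-mapping reads were handled is not given in the sources used here, so genes with near-identical copies are uncertain. All columns of the table were mapped to samples by their labels.

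The quasi-likelihood test of edgeR 4.0.16 (R 4.3.3; TMM scaling, low genes removed by filterByExpr, two-sided p-values adjusted by Benjamini-Hochberg across the tested table) was run on the counts of the 6 libraries of the comparison, without and with the replicate number as an additive block. Genes with an adjusted p up to 0.05 were called, and the 2-fold calls also had to reach 1 on the log2 scale. SEs come from the F statistic, in which edgeR shares variance across genes, so they are not the spread of a single gene alone. CPM use TMM library sizes. Same-numbered pairs had an r of 0.0638, 0.714 and 0.712, against a threshold of 0.1 set for each, and the pairing comes from the labels alone. DESeq2 1.42.0 with default settings, other scalings and filters, one fit of all 5 groups, a test against a 2-fold difference, and leaving out each library were the alternatives. The fits with the block and each library left out, and the list counts under every setting, were added after seeing the data. The fits were also run on simulated counts, with a replicate effect either absent or shared by all same-numbered libraries. Neither setting matches these data, where number 1 hardly deviated together (r = 0.0638), so the simulation does not settle whether the block is apt here.

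With 3 libraries per group an exact permutation test of 1 gene cannot give a two-sided p below 0.1, so p-values come from models over all genes. The members of the comparison and the gene lists were chosen with earlier results of these data known. Genes were named by rule: those past both thresholds in either fit, the 5 of smallest p in each direction and fit, up to 4 of each list by p with the block, and check genes. Not all of them are printed, and MDH2, CIT2, NDE1, CYC1, COX5B, AAC3, PDI1, FBP1, the carriers and cristae genes and genes from small lists were added after their values were seen. Gene names, positions and sequences are from RefSeq R64, to which 6047 of 7127 identifiers matched, and sequences were searched with Python 3.11.15.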

Additional observations from a re-analysis of the deposited data

How the results depend on the processing

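Without the block, edgeR called 0 genes with RLE size factors, total library size, no filter, at least 10 counts in every library and the test against a 2-fold change. DESeq2 called 13 higher and 76 lower, of which 1 (AAC3) and 8 passed 2-fold, and all 5 groups in one fit gave 4 higher and 50 lower, with 1 (AAC3) and 3 (PCK1, ICL1 and AGX1) past 2-fold. Leaving out 1 library gave 0 to 1 higher (ZRT1, without control replicate 2) and 0 to 1 lower (ICL1, without control replicate 3), at any fold and at 2-fold. The replicate block gave 41 higher and 147 lower, with 6 lower past 2-fold. With the block, RLE size factors gave 39 higher and 132 lower (6 past 2-fold), total library size 62 and 125 (6 past 2-fold), DESeq2 51 and 153 (6 past 2-fold), and all 5 groups in one fit 49 and 156, with 1 higher and 7 lower past 2-fold. With the block and 1 library left out, 1 to 258 genes were higher and 8 to 259 lower, and past 2-fold 0 to 9 and 6 to 10. Each such fit in effect leaves out a pair. The counts were 1 and 8 (deletion) and 3 and 10 (control) without replicate 3, 228 and 245 and 258 and 259 without replicate 1, and 84 and 147 and 143 and 179 without replicate 2. PDR5 reversed to 0.0018 and 0.0034 with total library size (without and with the block) and to 0.021 without control replicate 2, which also turned CIT2 to 0.19. Without 1 library and without the block, PDR5 ran from -0.085 to 0.021 and CIT2 from -0.75 to 0.19. Replicate 1 of the deletion group deviated most like control replicate 2 (r = 0.0997), so not every library matched its own number best. The causes were not tested. Of the other values of the named genes under these settings, 951 kept their direction and their side of the threshold and 508 came to pass it. No scaling moved the median of all genes by over 0.1.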

Other observations

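ZRT1, the high-affinity zinc transporter, stood at 1253, 1585 and 610 CPM in replicates 1, 2 and 3 of the deletion group and at 34.7, 1833 and 37.2 CPM in the controls. ZPS1, another zinc-responsive gene, stood at 493, 1043 and 55.6 CPM against 14.1, 1377 and 16.4 CPM. Control replicate 2 was the highest of the 6 libraries for both genes while the other controls were low, and for ZPS1 replicate 3 of the deletion group was low as well. Without control replicate 2, ZRT1 was the only gene called higher in the fit without the block (log2 fold change of 5.00, adjusted p = 0.020), and with all 6 libraries it was not called in either fit (adjusted p = 1.00 without and 0.11 with the block). ZRT1 and ZPS1 were singled out after their values were seen, and no explanation was tested.

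HSP26, a small heat shock protein gene of the cytosolic heat shock list, stood at 37.4, 206 and 9.47 CPM in the deletion libraries and at 9.49, 215 and 4.81 CPM in the controls. Replicate 2 was far above the others in both groups. Among the Pau proteins of anaerobic cells, PAU9 was called lower by DESeq2 without the block (log2 fold change of -1.71, adjusted p = 0.033) at 0.507 to 1.01 CPM against 2.09 to 2.51 CPM, and not by edgeR with the block (adjusted p = 0.080). None of its 59-base stretches occurs once in the genome (0.0% unique), so its counts cannot be told apart from those of its copies.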
